A study of Mus musculus with 4 samples.

Results

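The genes described here are 9 genes of lipid handling: the secreted lipases Lipg and Lpl, the lysosomal lipase Lipa, the cytosolic lipases Pnpla2, Lipe and Mgll, the droplet coat gene Plin2, and the fatty-acid binding protein genes Fabp4 and Fabp5. They are 9 of the 55487 rows of the deposited count table. Lipg was chosen because its level was much higher in fl/fl than in wt/wt, and the other 8 were chosen by function to be set beside it. The difference of Lipg between the genotypes is therefore given as a description, with no test. RNA was sequenced from myeloid cells of mouse liver, sorted as CD45+ CD3- CD11c- CD11b+ cells, with 2 LysM-Cre IL10R fl/fl libraries and 2 LysM-Cre IL10R wt/wt libraries. All 4 carry LysM-Cre, in which the recombinase is driven from the lysozyme 2 locus, active in monocytes, macrophages and granulocytes; the groups differ in whether the IL-10 receptor gene is floxed, so that Cre can delete it. Age, sex and tumour status of the mice are not in the labels, nor is it said that libraries of the same genotype came from separate animals; p-values measure only the spread between these libraries.

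Total counts were 17750343 and 17154042 in fl/fl 1 and 2, and 22694136 and 26441014 in wt/wt 1 and 2. Il10ra, the gene of the ligand-binding receptor chain, held 69.3 and 14.8 CPM (counts scaled to a common library size with TMM factors) in the fl/fl libraries, against 1111 and 993 CPM in wt/wt. Xist counts were 4298 for fl/fl 2, against 0 for fl/fl 1, wt/wt 1 and wt/wt 2. Summed counts of 4 Y-linked genes were 1 for fl/fl 2, against 3455 for fl/fl 1 and 5207 and 6562 for wt/wt 1 and 2. The fl/fl libraries thus did not come from a single animal, while for wt/wt this is not known. Library and sex cannot be told apart where fl/fl 2 differs from fl/fl 1, and sex was not balanced between the genotypes. Leukocyte markers fitted a myeloid sort, with, among genes chosen after their values were seen, Ccr2 of monocytes at 1304 and 1567 CPM in the fl/fl libraries and 1640 and 1723 CPM in wt/wt, and Cd3e of T cells at 0 to 2 counts a library. Of 7 Kupffer cell markers 2 were tested, and edgeR called 0, with 1 at an unadjusted p under 0.05, as for 22.5% of all tested genes. The 7 markers summed to 75.8 and 59.2 CPM in the fl/fl libraries, against 8.80 and 36.03 CPM in wt/wt. Most of that sum was Slc40a1, the iron exporter ferroportin, at 72.3 and 54.9 CPM in the fl/fl libraries and 8.27 and 34.1 CPM in wt/wt (adjusted p = 0.164, edgeR). Cd5l held 22 and 47 counts in the fl/fl libraries and 5 and 47 in wt/wt, Marco 1 to 21 counts a library, and Timd4, Vsig4, Clec4f and Folr2 0 to 15.

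Fatty acids reach a myeloid cell from lipoproteins, through lipases at the cell surface, or from particles broken down in its lysosomes. Inside the cell they are bound by fatty-acid binding proteins and either burned or stored as triglyceride in droplets coated by perilipins, from which cytosolic lipases release them again in sequence. In macrophages these steps set how much lipid is stored and how much fatty acid is free to act as fuel or as a ligand of nuclear receptors.

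Lipg encodes endothelial lipase, a secreted enzyme that acts mainly on phospholipids of high-density lipoprotein and was named for its expression in endothelium. The gene (ENSMUSG00000053846) lies on GRCm38 chromosome 18, from 74939322 to 74961263 on the minus strand. Lipg held 2368 and 340 counts in fl/fl 1 and 2, which is 138 and 19.4 CPM, against 10 and 23 counts in wt/wt 1 and 2, which is 0.449 and 0.847 CPM. Both fl/fl libraries were above both wt/wt libraries, and fl/fl 1 was 7.11-fold above fl/fl 2. Among the 13496 tested genes ordered by CPM, Lipg stood at rank 1446 in fl/fl 1 and 6366 in fl/fl 2, and at 12915 and 12023 in wt/wt. The mean was 78.6 ± 83.8 CPM in the fl/fl libraries and 0.648 ± 0.282 CPM in wt/wt (SD, n = 2 each), a ratio of 121, and the log2 fold change in the edgeR fit was 6.88 ± 1.04 (SE). Without fl/fl 1 the log2 fold change was 4.83, and without fl/fl 2 it was 7.69. The size of the difference therefore depended on which fl/fl library was used. Its direction could not turn in these runs, since both fl/fl libraries were above both wt/wt libraries.

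**Figure D1:**
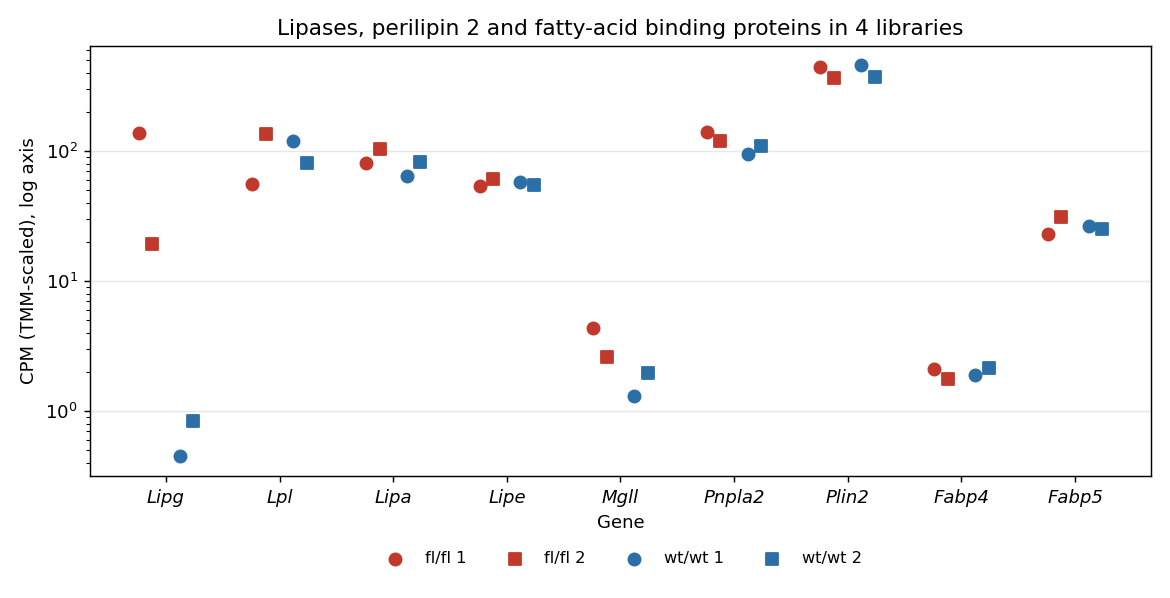
CPM of each of the 9 genes in every library, on a log axis; red marks fl/fl and blue wt/wt, circles replicate 1 and squares replicate 2. Lipg stands at 138 and 19.4 CPM in fl/fl against 0.449 and 0.847 CPM in wt/wt, whereas the libraries of the genotypes overlap for 6 of the other 8 genes.

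Lpl encodes lipoprotein lipase, which frees fatty acids from the triglyceride of circulating lipoproteins and is secreted by macrophages and adipocytes. The gene (ENSMUSG00000015568) lies on GRCm38 chromosome 8, from 68880491 to 68907448 on the plus strand. Lpl held 55.6 and 136 CPM in libraries fl/fl 1 and 2, against 120.1 and 80.6 CPM in wt/wt 1 and 2. The genotypes overlapped, since the fl/fl libraries were the lowest and the highest of the 4. Its log2 fold change was −0.07 ± 0.40 (SE), which did not pass edgeR's quasi-likelihood test (adjusted p = 0.951), with a 95% interval of −1.03 to 0.89. That interval admits changes of up to about 1 log2 unit either way. Between the 2 fl/fl libraries, Lpl was 2.44-fold higher in fl/fl 2, where Lipg was the lower. Leaving out fl/fl 1 put the log2 fold change of Lpl at 0.40 (adjusted p = 0.426, edgeR), leaving out fl/fl 2 put it at −0.84 (adjusted p = 0.0846), and leaving out wt/wt 1 put it at 0.20 (adjusted p = 0.947).

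Set side by side as CPM per kilobase of the longest coding transcript, the balance of the secreted lipases differed between libraries. Lipg held 36.4 and 5.12 CPM per kilobase in the fl/fl libraries, against 0.119 and 0.224 in wt/wt. Lpl held 13.5 and 33.0 CPM per kilobase in the fl/fl libraries, against 29.2 and 19.6 in wt/wt. The ratio of Lipg to Lpl on this scale was 2.69 for fl/fl 1 and 0.155 for fl/fl 2, against 0.00406 and 0.0114 for wt/wt 1 and 2. Lipg thus exceeded Lpl in fl/fl 1 and stood below it in the other 3 libraries.

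Lipa encodes lysosomal acid lipase, which cleaves cholesteryl esters and triglycerides taken up with lipoproteins. The gene (ENSMUSG00000024781) spans 34492318 to 34527474 on the minus strand of GRCm38 chromosome 19. It held 81.4 and 103.6 CPM in the fl/fl libraries, against 64.6 and 82.3 CPM in wt/wt. The lower fl/fl library stood just below the higher wt/wt library, so the genotypes overlapped. The log2 fold change of Lipa was 0.33 ± 0.20 (SE), with a 95% interval of −0.14 to 0.81 (adjusted p = 0.387, edgeR).

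The cytosolic lipases act in sequence. Pnpla2 (adipose triglyceride lipase) takes the first fatty acid from a triglyceride, Lipe (hormone-sensitive lipase) acts on the diglyceride, and Mgll (monoglyceride lipase) releases the last fatty acid and also degrades the endocannabinoid 2-AG. On GRCm38, Pnpla2 spans 141455198 to 141460743 on the plus strand and Lipe 25379527 to 25398710 on the minus strand of chromosome 7, and Mgll spans 88724412 to 88828360 on the plus strand of chromosome 6. Pnpla2 held 140.6 and 119.7 CPM in the fl/fl libraries, against 94.4 and 109 CPM in wt/wt. Both fl/fl libraries of Pnpla2 were above both wt/wt libraries, with a fitted difference of 0.35 ± 0.17 (SE) on the log2 scale (adjusted p = 0.280, edgeR), with a 95% interval of −0.05 to 0.76. Lipe was the steadiest of these lipases, at 53.9 and 60.4 CPM in the fl/fl libraries and 58.0 and 54.4 CPM in wt/wt, with a log2 fold change of 0.02 ± 0.16 (SE; adjusted p = 0.957, edgeR) and a 95% interval of −0.36 to 0.41. Part of its exonic length, 15.6%, overlaps 4732471J01Rik on the opposite strand, which held 22 to 64 counts a library against 925 to 1478 for Lipe; the strand setting of the counting is not given in the sources used here.

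Mgll was scarce, with 75 and 46 counts in the fl/fl libraries and 29 and 53 counts in wt/wt. On the CPM scale it held 4.37 and 2.63 in the fl/fl libraries, against 1.30 and 1.95 in wt/wt, so that both fl/fl libraries were above both wt/wt libraries. Its fitted log2 difference was 1.10 ± 0.50 (SE; adjusted p = 0.263, edgeR) and the 95% interval ran from −0.10 to 2.29. This was the widest interval and the largest estimate among the 8 genes besides Lipg, and the difference did not pass the threshold of 0.05. Per kilobase, Pnpla2 was 49.0-fold and 69.3-fold above Mgll in fl/fl 1 and 2, and 110.2-fold and 85.0-fold above it in wt/wt 1 and 2.

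Plin2 encodes perilipin 2, the coat protein of lipid droplets in most cells other than adipocytes, and its RNA was the most abundant of the 9 per kilobase in every library. The gene (ENSMUSG00000028494) lies on GRCm38 chromosome 4, from 86648386 to 86670060 on the minus strand. It held 441 and 365 CPM in the fl/fl libraries, against 454 and 368 CPM in wt/wt. The pairs were nearly superimposed, with 1 lower and 1 higher library in each genotype. For Plin2 the log2 difference was −0.03 ± 0.19 (SE; adjusted p = 0.955, edgeR), with a 95% interval of −0.48 to 0.42. An annotated transcript of Gm12551 matches Plin2 at 95% identity or more and held 4 and 48 counts in the fl/fl libraries and 65 and 70 in wt/wt, against 6392 to 10107 counts for Plin2.

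Fabp4 and Fabp5 encode small cytosolic carriers of fatty acids, known from adipocytes and macrophages and from epidermis and macrophages. They lie 187 kb apart on GRCm38 chromosome 3, Fabp5 at 10012548 to 10016607 on the plus strand and Fabp4 at 10204088 to 10208576 on the minus strand. Fabp5 held 23.2 and 30.9 CPM in the fl/fl libraries, against 26.4 and 25.2 CPM in wt/wt, and the fl/fl libraries lay on either side of the wt/wt pair. That gave a log2 fold change of 0.07 ± 0.21 (SE; adjusted p = 0.897, edgeR), with a 95% interval of −0.43 to 0.57. Fabp4 held 36 and 31 counts in the fl/fl libraries and 42 and 58 counts in wt/wt, which is 2.10 and 1.77 CPM for fl/fl and 1.89 and 2.14 CPM in wt/wt. The libraries of Fabp4 overlapped as well, at a log2 fold change of −0.06 ± 0.49 (SE; adjusted p = 0.965, edgeR). At these low counts the 95% interval of Fabp4 reached from −1.21 to 1.10, so a change of 2-fold was not excluded. Per kilobase, Fabp5 exceeded Fabp4 by 10.0-fold and 15.8-fold in fl/fl 1 and 2 and by 12.7-fold and 10.7-fold in wt/wt 1 and 2. Near copies of Fabp5 (Gm6166 and Gm14328) held 0 to 3 counts a library.

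**Figure D2:**
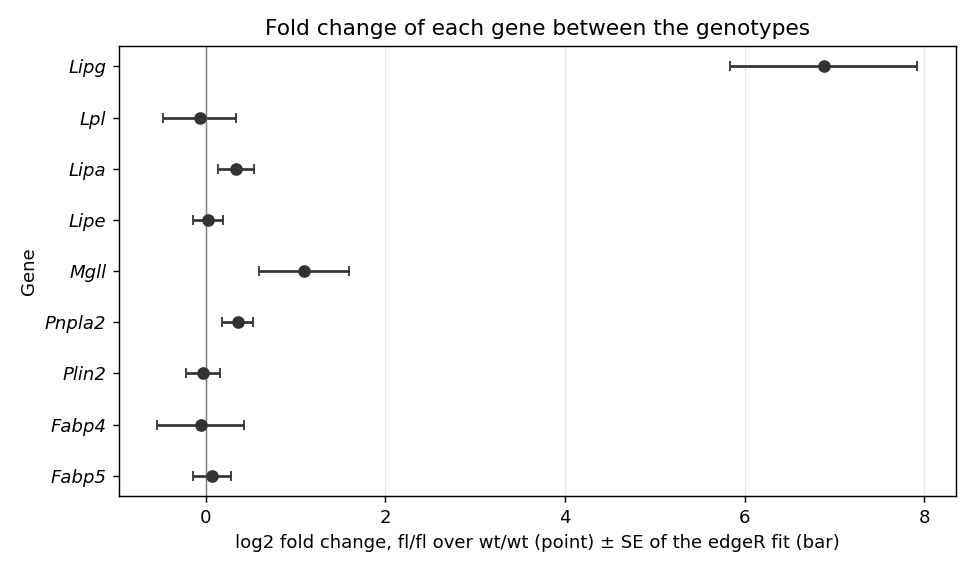
Log2 fold change of each gene, fl/fl over wt/wt, with the SE of the edgeR fit as the bar. Lipg lies at 6.88, Mgll at 1.10, and the other 7 genes lie between −0.07 and 0.35.

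All 9 genes passed the filter on low counts. Of the 8 genes other than Lipg, 0 passed the edgeR test at an adjusted p under 0.05, and DESeq2 and limma-voom also called 0. At an unadjusted p under 0.05 edgeR gave 0 as well, where 22.5% of all tested genes lay under it. Over all tested genes 5.85% were called, 2.69% higher and 3.16% lower in fl/fl, so 0 of 8 is close to the background and is not a result about these genes. The 95% interval stayed within 1 log2 unit of no change for 5 of the 8: Lipa, Lipe, Pnpla2, Plin2 and Fabp5. For Lpl, Mgll and Fabp4 a change of 2-fold lay inside it. The median absolute log2 fold change of the 8 genes was 0.07, beside 0.35 over all tested genes. The libraries of the genotypes did not overlap for Lipg, Mgll and Pnpla2, each higher in fl/fl, where 28.1% of all tested genes were higher in both fl/fl libraries.

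The order of the genes per kilobase was the same in the 4 libraries for its upper 2 ranks and for Lipe. It rests on the longest coding transcript, at 987 bases for Fabp5 and 4115 for Lpl. All annotated exons together span 3567 and 10478 bases for these genes, and the order with such lengths was not computed. Plin2 ranked the highest and Pnpla2 the next in each library, at 193 to 240 and 35.95 to 53.6 CPM per kilobase. Lipa, Fabp5 and Lpl followed at 13.5 to 34.9, and their ranges overlapped, so that no order among them held beyond the spread between libraries. Lipe kept rank 6 in every library, at 14.5 to 16.3, a range that the lowest Lpl library undercut. Fabp4 and Mgll were low throughout, at 1.97 to 2.38 and 0.326 to 1.09, with Mgll at rank 9 in both fl/fl libraries and rank 8 in both wt/wt libraries. Lipg changed place most, at rank 3 and 7 of the 9 genes in fl/fl and rank 9 in both wt/wt libraries.

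As a share of the summed per-kilobase level of the 6 lipases, Lipg made up 24.9% and 3.78% in the fl/fl libraries, against 0.115% and 0.215% in wt/wt. Pnpla2 held the largest share in each library, at 36.6% and 33.6% in the fl/fl libraries and 34.9% and 39.9% in wt/wt. Lpl made up 9.22% and 24.4% in the fl/fl libraries, against 28.3% and 18.8% in wt/wt. Without Lipg, the summed level of the other 5 lipases was 110.1 and 130.4 CPM per kilobase in the fl/fl libraries, against 102.9 and 104.1 in wt/wt.

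**Figure D3:**
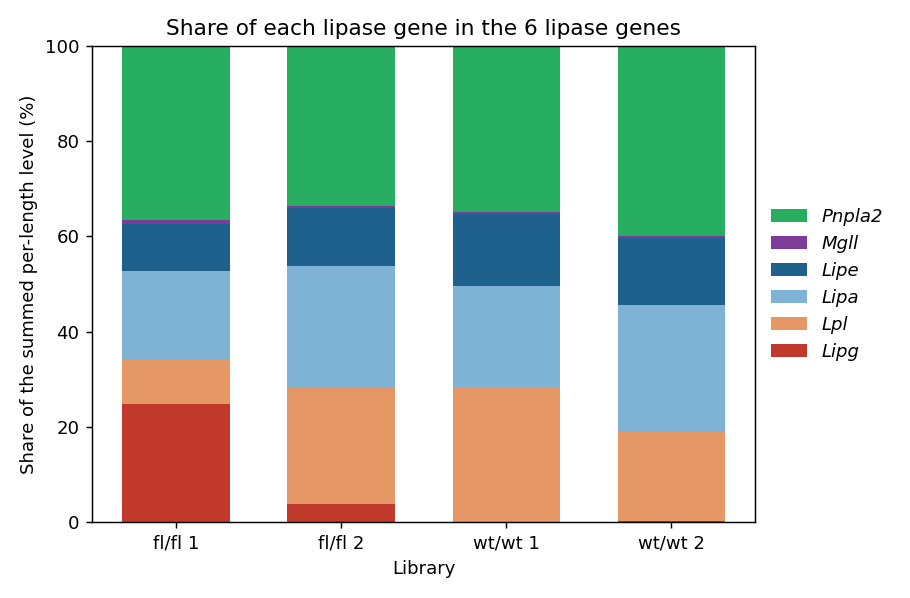
Share of each lipase gene in the summed CPM per kilobase of the 6 lipase genes, as stacked bars by library. The segment of Lipg takes 24.9% and 3.78% in fl/fl 1 and 2 and under 1% in both wt/wt libraries, and Pnpla2 is the largest segment in each bar.

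The libraries of a genotype differed most for Lipg among the 9 genes. The absolute log2 ratio of the fl/fl libraries was 2.82 for Lipg, larger than in 98.7% of tested genes, and 1.29 for Lpl, larger than in 90.1%. For the other 7 genes it ranged from 0.17 to 0.71, beside a median of 0.31 over all tested genes. Between the wt/wt libraries the ratio was 0.79 for Lipg, from 10 and 23 counts, 0.57 for Lpl and 0.55 for Mgll, and 0.063 to 0.35 for the other 6 genes, beside a median of 0.25.

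Markers of other cell types were measured in the same libraries. All 7 granulocyte precursor genes in the table were tested and 6 were called higher in fl/fl, beside 2.69% of all tested genes. The 7 summed to 1526 and 481 CPM in libraries fl/fl 1 and 2, against 49.1 and 42.0 CPM in wt/wt 1 and 2. All 9 neutrophil genes were called higher, at a summed 35310 and 15667 CPM in the fl/fl libraries, against 2617 and 3044 CPM in wt/wt. The most abundant precursor gene, Prtn3 (proteinase 3), held 687 and 249.5 CPM in the fl/fl libraries, against 28.0 and 23.4 CPM in wt/wt, and Elane (neutrophil elastase) held 296 and 87.8 CPM in the fl/fl libraries, against 5.21 and 3.02 CPM in wt/wt. The neutrophil sum was led by S100a9, at 12617 and 5566 CPM in the fl/fl libraries and 922.5 and 1199.9 CPM in wt/wt, and S100a8, at 8792 and 3084 CPM in the fl/fl libraries and 526 and 498 CPM in wt/wt. Both sums were higher in library fl/fl 1 than in fl/fl 2, as Lipg was, and their part in the level of Lipg was not tested. In bulk libraries more cells of a type and more RNA per cell cannot be told apart.

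Markers of endothelial cells, after which the enzyme is named, summed to 274.3 and 274.2 CPM over 10 genes in the fl/fl libraries, against 452 and 466 CPM in wt/wt. Among them, the defining genes Stab2 and Cdh5 (chosen after their values were seen) were near 0. Stab2 held 0.524 and 0.285 CPM in the fl/fl libraries and 0.314 and 0 CPM in wt/wt, and Cdh5 (VE-cadherin) held 0.466 and 0.628 CPM in the fl/fl libraries and 2.02 and 1.66 CPM in wt/wt. Fcgr2b, also expressed by myeloid cells, was the marker with the highest level, at 256 and 255.5 CPM in the fl/fl libraries and 432 and 451 CPM in wt/wt, and it fell in the fl/fl libraries (log2 fold change −0.79 ± 0.15, SE; adjusted p = 0.0357, edgeR). The other 9 summed to 18.2 and 18.7 CPM in the fl/fl libraries, against 19.5 and 15.2 CPM in wt/wt; Pecam1, likewise found on leukocytes, held 12.3 to 13.8 CPM of this, and 0 of the 6 tested were called. Adipocyte genes were near 0, with Plin1, Cidec, Adig and Slc7a10 at 0 counts in all 4 libraries and the 8 markers together at 0.990 and 1.26 CPM in the fl/fl libraries and 0.449 and 0.810 CPM in wt/wt. A count of 0 allows up to 3 counts, or 0.111 to 0.175 CPM a library, for counting error only.

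**Figure D4:**
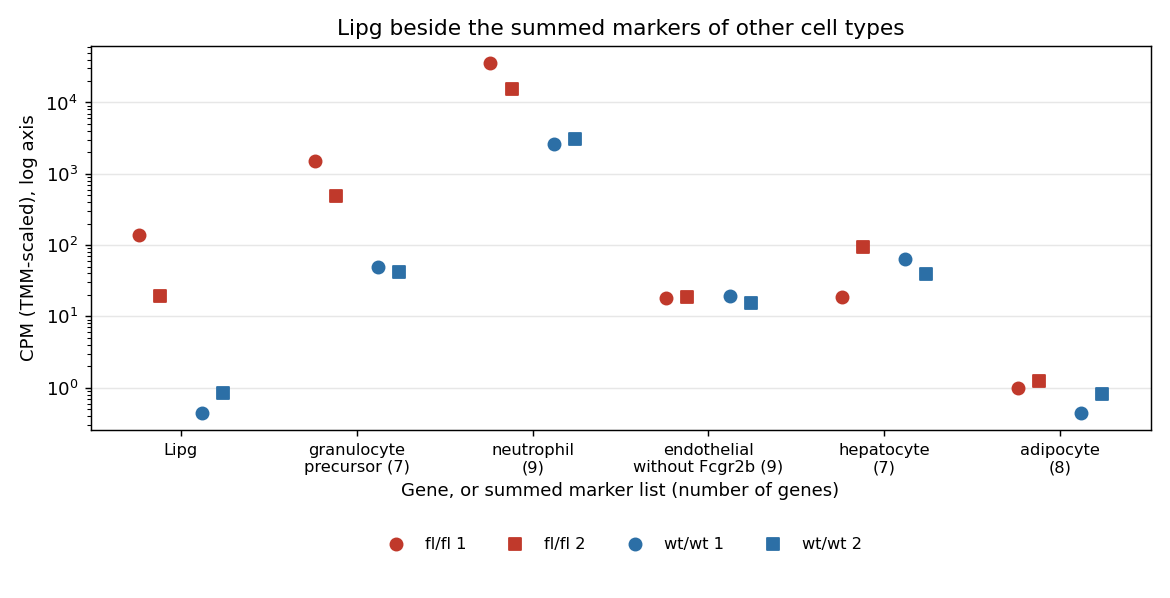
CPM of Lipg and summed CPM of marker lists in every library, on a log axis; red marks fl/fl and blue wt/wt, circles replicate 1 and squares replicate 2. Lipg and the granulocyte sums are highest in fl/fl 1, next in fl/fl 2 and low in wt/wt, while the endothelial sum without Fcgr2b stays at 15.2 to 19.5 CPM.

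The hepatocyte markers differed between libraries of the same genotype, at a summed 18.9 and 94.6 CPM in the fl/fl libraries and 63.4 and 39.6 CPM in wt/wt, and 0 of 7 were called. Alb was the leading gene of that list, at 9.55 and 60.7 CPM in the fl/fl libraries and 40.0 and 26.7 CPM in wt/wt. Fabp1, the liver fatty-acid binding protein and a relative of Fabp4 and Fabp5, held 1.05 and 9.47 CPM in the fl/fl libraries and 2.25 and 1.29 CPM in wt/wt, and was a gene chosen with its values in view. Fabp1 and the hepatocyte sum were both highest in fl/fl 2, and the part of hepatocyte RNA in Fabp1 was not tested. Beside 3.16% of all tested genes called lower, 2 of 6 markers of lipid-laden macrophages fell in fl/fl. These were Trem2, a lipid receptor, at 114 and 97.0 CPM in the fl/fl libraries and 178 and 191 CPM in wt/wt (adjusted p = 0.0394, edgeR), and the elastase gene Mmp12, at 1.16 and 0.342 CPM in the fl/fl libraries and 13.4 and 6.08 CPM in wt/wt (adjusted p = 0.0294, edgeR), both named after their values were seen. Spp1 did not pass, at 61.0 and 5.31 CPM in the fl/fl libraries and 283 and 354 CPM in wt/wt (adjusted p = 0.0934, edgeR). Ctsd held 430.2 and 373 CPM in the fl/fl libraries and 380.2 and 477 CPM in wt/wt. Also not past the threshold were Cd9 and Gpnmb (adjusted p = 0.148 and 0.83, edgeR), both named after their values were seen.

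The tested genes nearest to Lipg in profile were found by the Euclidean distance between centred log2 CPM over the 4 libraries. They were Stfa2 (distance 0.75), Saa3 (0.95), Mpo (1.01), Ctsg (1.34) and Ggt1 (1.35), where the median distance of all tested genes was 6.53. Mpo and Ctsg encode enzymes of the primary granules of granulocyte precursors, and Saa3 encodes an acute-phase protein. Mpo held 267 and 62.7 CPM in the fl/fl libraries, against 2.56 and 2.14 CPM in wt/wt. Saa3 held 1208 and 164 CPM in the fl/fl libraries, against 10.3 and 11.4 CPM in wt/wt. Each of the 5 was higher in library fl/fl 1 than in fl/fl 2 and lowest in wt/wt. A gene chosen by its nearness in profile shares this order through the choice, so the order is no separate result. Reads of Stfa2 may be shared with near-identical stefin genes. Close to Lpl in profile was Zfp59 (0.11), beside a median of 1.17, with its highest level in fl/fl 2 and its lowest in fl/fl 1, as for Lpl. The nearest to Plin2 were Lin9 and Eri1, to Fabp4 Atxn1l and Slc25a26, and to Fabp5 Alkbh8 and Gpat4, at distances of 0.01 to 0.04 among flat profiles.

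None of the tested genes beside Lipg on the chromosome had a log2 fold change as far from 0 as its 6.88. Within 500 kb on either side of Lipg, 9 other genes were tested. Of these, 0 were called higher and 1, Smad7, was called lower (named after its values were seen). Over all tested genes 2.69% were called higher and 3.16% lower. The 0 of 9 called higher is thus close to the background and is not a result about these genes. Smad7, an inhibitor of TGF-beta signalling, held 22.8 and 21.7 CPM in the fl/fl libraries, against 130.2 and 81.9 CPM in wt/wt. The nearest was Rpl17 at 37.3 kb, with a log2 fold change of 0.17 (adjusted p = 0.654, edgeR). Next came Snord58b at 39.8 kb, at −0.49 (adjusted p = 0.771, edgeR), with only 0.466 to 0.810 CPM a library. BC031181 at 44.6 kb was at 0.07 and Acaa2 at 133 kb at 0.87 (adjusted p = 0.882 and 0.0692, edgeR).

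Around the 9 genes, 7 lists of lipid pathway genes held 136 genes, of which 108 were tested. Of these 5 rose and 2 fell in fl/fl, which is 6.48%, near the 5.85% of all tested genes. The median log2 fold change over the 108 genes was 0.14, beside 0.02 over all tested genes. These shares are pooled and do not compare the lists. By list, the median was highest for fatty acid binding, uptake and activation, at 0.47, and for beta-oxidation, at 0.35. The medians of the remaining lists ran from −0.05 to 0.22. No list was tested as a set. All 7 calls ended when a wt/wt library was left out, at adjusted p of 0.157 to 0.368 without wt/wt 1 and 0.0690 to 0.211 without wt/wt 2; the whole table then held 0 called genes, with 1576 and 2333 at an unadjusted p under 0.05.

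Among the regulators of lipoprotein and endothelial lipase, 1 of 9 tested genes fell and 0 rose. Sdc1 encodes syndecan 1, a heparan sulfate proteoglycan, the class of surface molecules that hold these lipases. It held 5.01 and 2.51 CPM in the fl/fl libraries, against 36.3 and 26.8 CPM in wt/wt (log2 fold change −3.07 ± 0.37, SE; adjusted p = 0.0134, edgeR). The fl/fl libraries were far below both wt/wt libraries. Furin, a protease that cleaves and inactivates both enzymes, and Lrp1, a receptor for lipoprotein remnants, were at −0.62 and −0.53 without passing (adjusted p = 0.105 and 0.146, edgeR). Lmf1, the factor that both lipases need to fold, held 20.7 and 25.9 CPM in the fl/fl libraries and 28.5 and 30.4 CPM in wt/wt, and the inhibitor Angptl4 held 3 to 16 counts a library. Gpihbp1, the capillary anchor of lipoprotein lipase, held 0 to 16 counts a library; Lmf1, Angptl4 and Gpihbp1 were named after their values were seen.

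None of 16 tested genes of intracellular lipolysis and droplet proteins was called by edgeR. Beside 22.5% of all tested genes, 5 of the 16 had an unadjusted p under 0.05. Abhd5, the coactivator of adipose triglyceride lipase, held 66.3 and 26.3 CPM in the fl/fl libraries, against 20.2 and 16.8 CPM in wt/wt. Its inhibitor gene G0s2 held 478 and 232 CPM in the fl/fl libraries, against 65.8 and 172 CPM in wt/wt. Both were higher in the fl/fl libraries, above all in fl/fl 1, and their log2 fold changes of 1.32 and 1.58 did not pass (adjusted p = 0.114 and 0.120, edgeR). Plin3, a perilipin that moves between cytosol and droplets, was at 0.58 (adjusted p = 0.119, edgeR).

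Of 16 tested genes of triglyceride and cholesteryl ester synthesis, 2 rose and 0 fell. Dgat1, which adds the third fatty acid of a triglyceride, held 337 and 179 CPM in the fl/fl libraries, against 63.7 and 73.2 CPM in wt/wt (log2 fold change 1.91 ± 0.30, SE; adjusted p = 0.0215, edgeR). Mogat2, which makes diglyceride from monoglyceride, held 10.2 and 6.33 CPM in the fl/fl libraries, against 0.584 and 1.25 CPM in wt/wt (3.15 ± 0.51, SE; adjusted p = 0.0231, edgeR). Gpat3, an enzyme of the first step of glycerolipid synthesis, was lower in both fl/fl libraries, at 25.3 and 9.02 CPM in the fl/fl libraries and 73.8 and 54.6 CPM in wt/wt, without passing (adjusted p = 0.0593, edgeR). Dgat1, Mogat2 and Gpat3 were each higher in library fl/fl 1 than in fl/fl 2, as the granulocyte sums were. The part of granulocyte RNA in their levels was not tested.

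Of 14 tested genes of fatty acid binding, uptake and activation, 2 rose and 0 fell. Ffar2, a receptor for short-chain fatty acids found on neutrophils, held 30.1 and 16.4 CPM in the fl/fl libraries, against 5.57 and 4.35 CPM in wt/wt (log2 fold change 2.23 ± 0.35, SE; adjusted p = 0.0216, edgeR). Slc27a4, a fatty acid transport protein, held 82.5 and 60.5 CPM in the fl/fl libraries, against 31.4 and 38.5 CPM in wt/wt (1.03 ± 0.22, SE; adjusted p = 0.0422, edgeR; 0.0895 without fl/fl 1). Dbi, the acyl-CoA binding protein, was at 0.60 (adjusted p = 0.0692, edgeR). The scavenger receptor Cd36, named after its values were seen, held 2.33 and 7.65 CPM in the fl/fl libraries and 14.1 and 9.95 CPM in wt/wt (adjusted p = 0.226, edgeR).

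Of 23 tested genes of beta-oxidation, Acadl rose and 0 fell. Acadl, the long-chain acyl-CoA dehydrogenase, held 110.5 and 60.04 CPM in the fl/fl libraries, against 34.05 and 34.15 CPM in wt/wt (log2 fold change 1.32 ± 0.29, SE; adjusted p = 0.0478, edgeR). Its call ended without fl/fl 1 (adjusted p = 0.0604), with RLE size factors (0.0527) and in limma-voom (0.0515). Acaa2 and Acaa1a, thiolases of the last step, were at 0.87 and 0.64 (adjusted p = 0.0692 and 0.0773, edgeR).

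Of 15 tested genes of fatty acid synthesis and desaturation, edgeR called 0. Beside 22.5% of all tested genes, 5 of the 15 had an unadjusted p under 0.05. Those with the smallest p were the elongase gene Elovl7, at 4.95 and 2.17 CPM in the fl/fl libraries and 0.314 and 0.847 CPM in wt/wt, the carboxylase gene Acacb, at 29 and 12 counts in the fl/fl libraries and 3 and 0 counts in wt/wt, and Acly, at 218 and 166 CPM in the fl/fl libraries and 287 and 270.2 CPM in wt/wt. The list of lipid-sensing transcription factors also held factors of cell development, such as Cebpa. Of its 15 tested genes, Cebpa fell and 0 rose. Cebpa, a factor of granulocyte, monocyte and adipocyte development, held 199.96 and 201 CPM in the fl/fl libraries, against 335 and 322 CPM in wt/wt (log2 fold change −0.71 ± 0.15, SE; adjusted p = 0.0443, edgeR). The call of Cebpa ended without fl/fl 1 (adjusted p = 0.0628), without fl/fl 2 (0.0583) and with the replicate number as a block (0.0526), while its log2 fold change moved between −0.75 and −0.71. Tfec and Srebf2 were at 0.95 and −0.56 without passing (adjusted p = 0.0841 and 0.134, edgeR), and Pparg, which drives Plin2, Lpl and Fabp4 in adipocytes, held 2.15 and 5.42 CPM in the fl/fl libraries and 2.70 and 2.98 CPM in wt/wt (named after its values were seen).

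**Figure D5:**
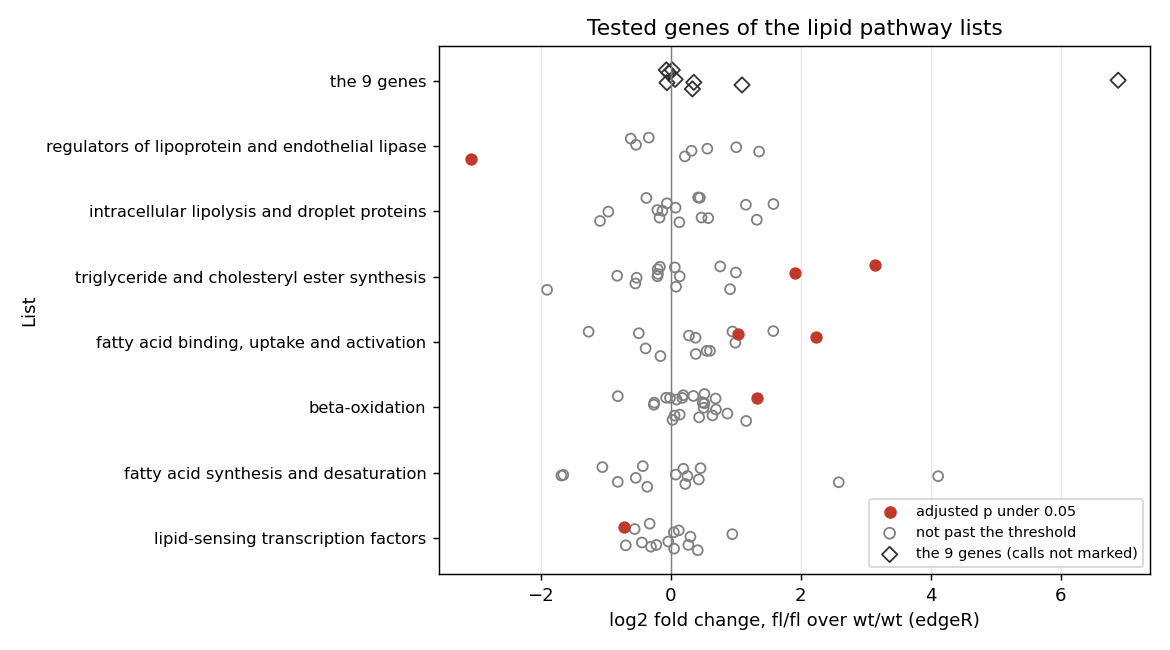
Log2 fold change, fl/fl over wt/wt, of the 9 genes (diamonds) and of each tested gene of the 7 lipid pathway lists (circles, red where the adjusted p was under 0.05). The 7 red circles are Sdc1, Dgat1, Mogat2, Ffar2, Slc27a4, Acadl and Cebpa, 5 to the right of 0 and 2 to the left, and none lies as far from 0 as Lipg at 6.88.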

How the data were processed

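The authors deposited 1 table of raw counts, with Ensembl genes in rows and the 4 libraries in columns. The submitters' processing notes list Trimmomatic 0.33, STAR 2.5.0, FastQC 0.11.5 and the build GRCm38; counting tool, strand setting and annotation release were not given in the sources used here. Gene symbols, positions and lengths came from GENCODE M21 (GRCm38), which held 55141 of the 55487 identifiers. The genotypes were tested gene by gene in R 4.3.3 (edgeR 4.0.16). A minimum count of 10 in filterByExpr left 13496 genes for TMM scaling, the quasi-likelihood F test without covariates, a prior count of 0.125 and Benjamini-Hochberg adjustment over all tested genes. Each SE was obtained by dividing the size of the log2 fold change by the root of its F statistic. With 2 libraries against 2 the smallest exact permutation p is 0.333. The biological coefficient of variation was 25.5%. The steps were run on simulated counts drawn at the fitted dispersion, with changes set only in genes at or above the median level. Those counts held no set difference between libraries of a genotype, and their outcome is not reported here. Profile distances used log2 CPM with a prior count of 2. Near copies were sought with blastn at 95% identity over 100 bases.

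The members and lists were chosen with earlier results of these data known. Genes were named by rule: the 9 genes, Il10ra, the called and the up to 3 leading genes of each pathway list, the 2 most expressed markers of the lists described, and the nearest profiles, of which 1 is not reported here; others are said to be named after their values were seen. Alternatives were other scalings and filters, DESeq2 1.42.0, limma-voom 3.58.1, a larger prior count, a replicate block, and leaving out each library, where a lone library is assumed to vary like the other genotype.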

Additional observations from a re-analysis of the deposited data

How the results depend on the processing

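Of the 8 genes besides Lipg, 0 were called under each alternative run, though Mgll and Fabp4 fell below the filter of 5 CPM and have no value under it. The number of all tested genes called was 790, and 2088 without a filter on low counts, 1618 in DESeq2, 1215 with the replicate block, and 0 to 1477 with single libraries left out. The pathway genes called were 7, and 28 without a filter, 17 in DESeq2 and 0 to 19 with single libraries left out. With single libraries left out, the log2 fold change ranged from 4.83 to 7.69 for Lipg, −0.84 to 0.40 for Lpl, −0.0546 to 0.0670 for Lipe, −0.21 to 0.11 for Plin2, −0.22 to 0.0649 for Fabp4 and −0.15 to 0.22 for Fabp5, so that the last 5 changed sign. Mgll, Lipa and Pnpla2 stayed positive, at 0.64 to 1.42, 0.12 to 0.52 and 0.20 to 0.47. Lipe was at −0.0012 with upper quartile scaling. The other scalings, filters and tools gave 6.30 to 6.91 for Lipg. The causes were not tested. The labels do not say that replicate numbers pair the libraries. The differences between the libraries of each genotype had a correlation of 0.0215 over genes. With 2 libraries each, this can neither show nor exclude a pairing. The replicate block, with 10 pathway genes called, therefore rests on numbers alone, and it ended the call of Cebpa. Mgll and Fabp4 rest on few reads, at 29 to 75 and 31 to 58 counts a library.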
